A study of Mus with 9 samples.

Results

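The amino acid and neurotransmitter transporters described here are the 64 protein-coding genes, of 54532 genes in the deposited table, whose symbols begin with Slc1a, Slc3a, Slc6a, Slc7a, Slc36a, Slc38a or Slc43a. They were taken by symbol and biotype alone, and no measured value entered the choice. The Slc1 family gave 7 members, Slc3 gave 2, Slc6 gave 21, Slc7 gave 16, Slc36 gave 4, Slc38 gave 11 and Slc43 gave 3. Slc7a6os was caught by its name only, since it is the gene lying 2011 bases from Slc7a6 on the opposite strand and is no transporter.

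Kidney RNA was sequenced from 9 male C57BL/6 mice, 1 library per mouse and 3 mice in each of 3 groups. Every mouse had 1 kidney removed at 18 months. The 18 mo group was killed 1 week after that surgery without further injections. The 21 mo group received saline into the peritoneum for 12 weeks, and the 21 mo/O304 group received the AMPK activator O304 at 10 mg/kg/day over the same 12 weeks. No young or sham-operated kidneys were analysed here. Age, time since surgery and the injections differed together between 18 mo and the other groups, so their parts cannot be told apart. The 21 mo and 21 mo/O304 groups differed in O304 against saline. No engineered allele is named for any group, and whole kidney was measured, so fewer cells of a type and less RNA per cell cannot be told apart.

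The kidney filters free amino acids and takes nearly all of them back in the proximal tubule. Carriers of the brush border bring them into the cell, often with sodium or protons, and exchangers and uniporters of the basolateral side release them to the blood. The heavy chains Slc3a1 and Slc3a2 have no transport activity of their own and bring Slc7 light chains to the membrane. Other members feed cells with glutamine, arginine or cystine, move amino acids out of lysosomes, or clear glycine, glutamate and monoamines in nervous tissue.

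Totals ran from 15636378 to 18396725 counts per library, so that 1 count was worth 0.0458 to 0.0669 CPM (the count scaled to the library's size by TMM). Libraries of the 21 mo group stood further apart than those of the other groups, with a biological coefficient of variation of 44.0% against 18.0% in 18 mo and 20.6% in 21 mo/O304. All 14 proximal tubule markers listed were present in every library. Their summed level was 19554 to 24912 CPM in 18 mo and 21966 to 24980 CPM in 21 mo/O304, but 20637, 10392 and 3164 CPM in 21 mo replicates 1, 2 and 3. The 7 tubule injury markers summed to 675 to 797 CPM in 18 mo, to 702 to 1064 CPM in 21 mo/O304, and to 1329, 12296 and 14160 CPM in the 21 mo libraries. Spp1 made up most of these sums, at 1235, 11162 and 12555 CPM in the 21 mo libraries. Havcr1, at 11.6, 475 and 61.2 CPM there, Vcam1 and Krt20 were highest in replicate 2, and Lcn2, Sox9 and Cdkn1a in replicate 3. The 9 markers of fibroblasts and smooth muscle summed to 167 to 247 CPM in 18 mo, to 105 to 278 CPM in 21 mo/O304, and to 140, 496 and 1203 CPM in the 21 mo libraries. The part of these shifts in the transporter results was not tested.

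Of the 64 members, 45 passed the filter on low counts and were tested, and 19 did not. The kidney was dominated by a few carriers of the brush border. On the authors' FPKM scale, which divides by gene length and so allows genes to be compared, 19 members had a mean of at least 10 over the 9 libraries and 35 had a mean of at least 1. Slc7a13 led with a mean of 399 FPKM, followed by Slc3a1 at 179, Slc6a18 at 128, Slc6a6 at 55.3, Slc6a8 at 49.2, Slc3a2 at 45.8, Slc6a19 at 45.2, Slc7a7 at 45.1, Slc7a9 at 40.5 and Slc6a13 at 36.7. These 10 genes made up 81.6% to 82.7% of the summed FPKM of all members in 18 mo, 65.7% to 79.4% in 21 mo and 80.9% to 84.1% in 21 mo/O304. The order from Slc6a6 to Slc7a9 is loose, because the ranges of these genes over the libraries overlapped.

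**Figure D1:**
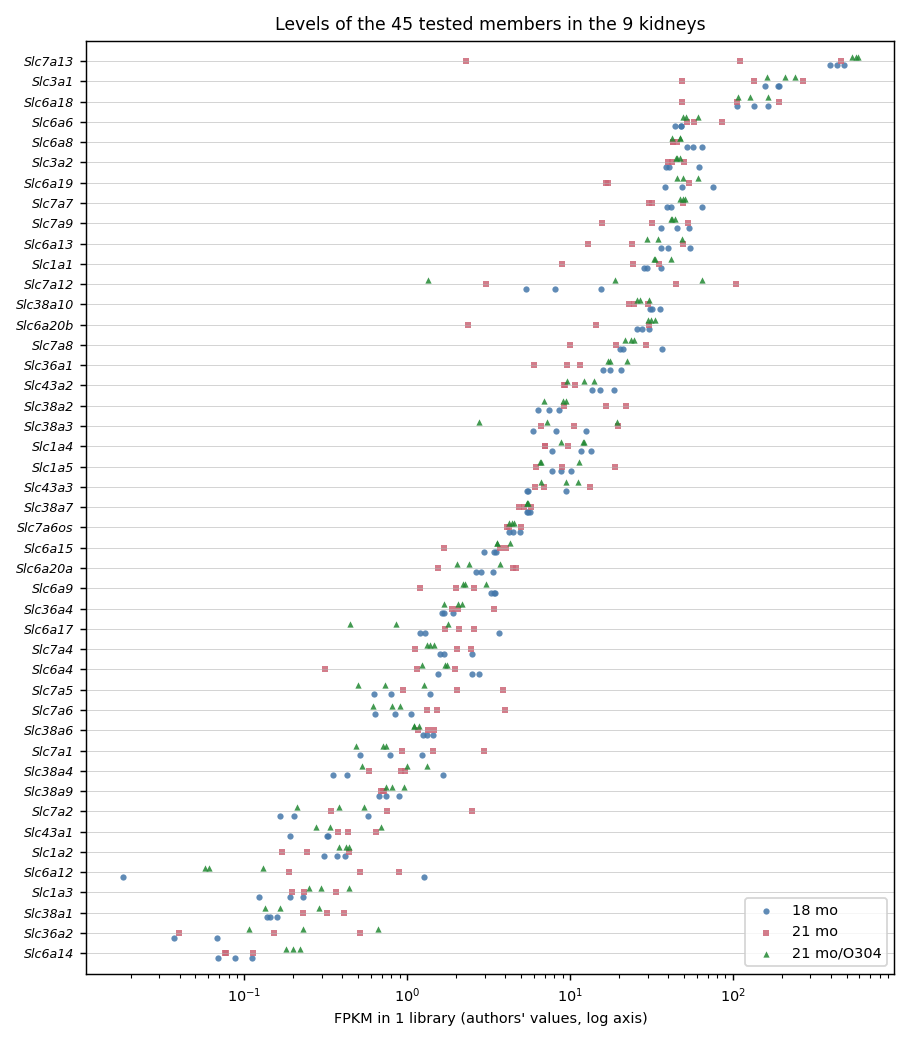
FPKM of each of the 45 tested members in each of the 9 libraries, on a log axis, with 18 mo as circles, 21 mo as squares and 21 mo/O304 as triangles; the libraries in which Slc36a2 and Slc6a12 had 0 counts are not drawn. Slc7a13 is the highest member in every 18 mo and 21 mo/O304 library and lies at 2.28 FPKM in 21 mo replicate 3.

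In 21 mo against 18 mo, the lysosomal carrier Slc36a1, the basolateral exporter Slc43a2, the creatine carrier Slc6a8 and the glycine carrier Slc6a9 were lower in every 21 mo library, and the glutamine and cationic amino acid carriers Slc38a2, Slc38a1 and Slc7a6 were higher in every one. None of these differences passed the test over all genes. By the edgeR quasi-likelihood test with Benjamini-Hochberg adjustment, 0 of 45 members had an adjusted p under 0.05, against 0.0189% of all 15902 genes higher and 0% lower. At an unadjusted p under 0.05 there were 7 members higher, beside 14% of all genes, and 4 lower, beside 12%. The 3 libraries of each group did not overlap for 5 members higher in 21 mo and 5 lower, and over all genes for 13.5% and 15.3%, so the members' shares were near those of the whole table. The median log2 difference of the members was -0.03, and that of all genes 0.03. DESeq2 on the same counts called 8 of the 60 members it fitted, or 13.3%, beside 7.36% of 28225 genes. Of these 60 members, 14 got no adjusted p, and the 28225 genes include many that failed the edgeR filter. The 2 shares are therefore not a like comparison. Of the libraries left out in turn, only 21 mo replicate 1 gave any call among the members by edgeR. It was the 21 mo library nearest to 18 mo in its proximal tubule and injury marker sums, and without it the group held replicates 2 and 3 only. That fit called 13 of 46 members, or 28.3%, beside 25.4% of all genes in it. The 7 higher ones were Slc38a2, Slc7a6, Slc7a11, Slc38a1, Slc7a2, Slc7a5 and Slc7a1, with differences of 1.34 to 4.10, and the 6 lower ones were Slc6a19, Slc36a1, Slc43a2, Slc6a13, Slc7a9 and Slc6a4, with differences of -1.65 to -0.75. Slc7a11, at 4.10, had failed the main filter. It entered this fit only through its counts in 21 mo replicates 2 and 3, where it was high, so its call carries no weight.

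In 21 mo/O304 against 21 mo, the same 21 mo libraries served as the other side, so the 2 comparisons are not independent. Slc36a1 was higher in every O304 library than in any 21 mo library, and Slc7a6 and Slc7a1, which carry cationic amino acids, were lower in every one. Again 0 of 45 members had an adjusted p under 0.05 by edgeR, against 0% of all genes in either direction. At an unadjusted p under 0.05, 2 members were higher, beside 8.27% of all genes, and 4 were lower, beside 12.4%. Groups did not overlap for 4 members higher and 3 lower, beside 10.8% and 10.5% of all genes. The median of the members was 0.09 and that of all genes -0.02. DESeq2 called 3 of 60 members, or 5%, beside 3.3% of all genes. Here too 14 of the 60 got no adjusted p, and the shares have the same limit. Of the libraries left out in turn, here too only 21 mo replicate 1 gave any call by edgeR, with replicates 2 and 3 then alone in that group. That fit called 9 of 46, or 19.6%, beside 23.1% of all genes. The 3 higher ones were Slc36a1, Slc6a19 and Slc6a20b, with differences of 1.27 to 1.91, and the 6 lower ones were Slc38a2, Slc7a6, Slc7a1, Slc7a11, Slc7a5 and Slc7a2, with differences of -3.66 to -1.21. Slc7a11, at -3.66, again entered the fit only through 21 mo replicates 2 and 3.

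In 21 mo/O304 against 18 mo, which shares its libraries with both comparisons above, most members lay close to the 18 mo level. The median was 0.00 for the members and 0.00 for all genes. No member had an adjusted p under 0.05 by edgeR, beside 0% of all genes, or by DESeq2, beside 0.443%, and the smallest edgeR value was 0.449 for Slc6a14. That gene passed the filter on low counts only through its O304 libraries. At an unadjusted p under 0.05, 2 members were higher and 2 lower, beside 4.33% and 5.33% of all genes. The 2 higher ones were Slc6a14 and Slc36a2, both tested only through libraries of the later groups. Groups did not overlap for 7 members higher and 4 lower, beside 13.2% and 13.3%. The edgeR p-values of this comparison use a spread taken over all 9 libraries, those of 21 mo included. With only the 6 libraries compared, 0 of 43 members had an adjusted p under 0.05 by edgeR, beside 0.144% of 15308 genes.

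**Figure D2:**
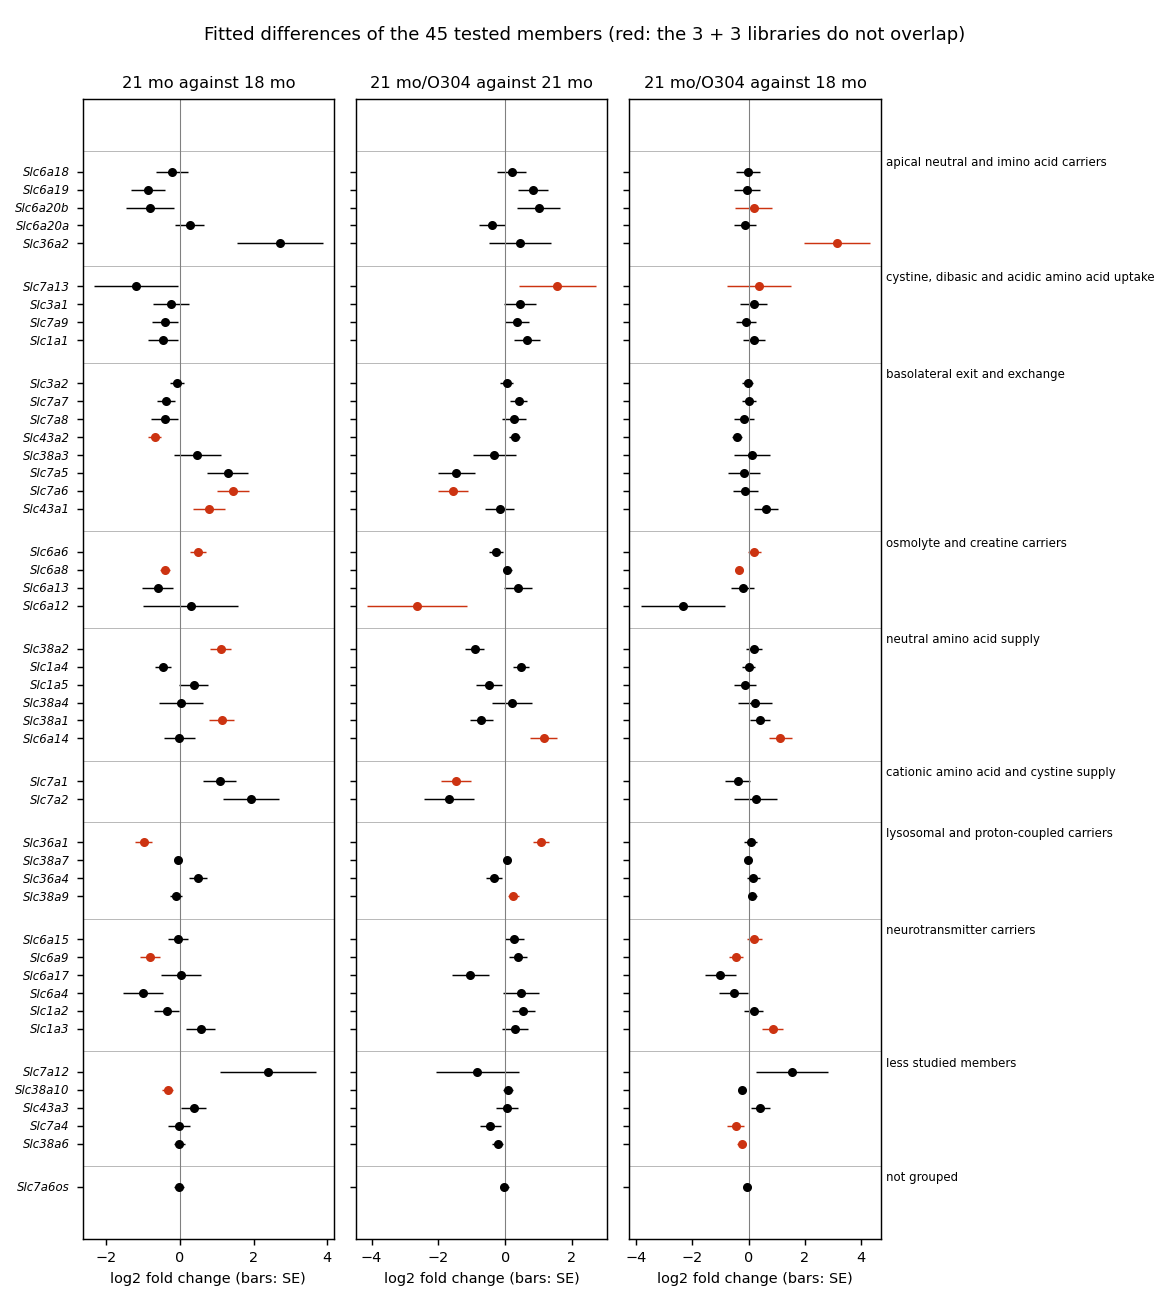
Fitted log2 fold change of each tested member, by role, in the 3 comparisons, with bars of 1 standard error and red marking members whose 3 and 3 libraries do not overlap. Of the 45 members, 10 are red where 21 mo is set against 18 mo, 7 where 21 mo/O304 is set against 21 mo, and 11 where 21 mo/O304 is set against 18 mo.

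The brush border carriers of neutral and imino acids were 5, and all were tested. Slc6a18, a carrier of glycine and alanine in the late proximal tubule (chromosome 13, 73661752 to 73678023, mm10), had 758, 611 and 483 CPM in 18 mo, 883, 484 and 223 CPM in 21 mo, and 753, 581 and 487 CPM in 21 mo/O304. Its neighbour Slc6a19, the main sodium-coupled carrier of neutral amino acids and the gene of Hartnup disorder, lies 1722 bases away on the same strand. It had 201, 247 and 388 CPM in 18 mo, 279, 89.0 and 86.9 CPM in 21 mo, and 256, 234 and 317 CPM in 21 mo/O304. For both genes 21 mo replicate 1 lay within or above the 18 mo range and 21 mo replicate 3 below it, so the groups overlapped. The fitted difference of 21 mo from 18 mo was -0.88 (SE 0.46) for Slc6a19, with an adjusted p of 0.253 by edgeR, and -0.22 (SE 0.44) for Slc6a18, with an adjusted p of 0.771. Without 21 mo replicate 1 that of Slc6a19 was -1.65, with an adjusted p of 0.00749, and O304 against 21 mo was then 1.60, with an adjusted p of 0.0100. The first was -0.54 without 18 mo replicate 3, and the second 0.55 without 21 mo replicate 3. The fit without 21 mo replicate 1 called 25.4% and 23.1% of all genes in these comparisons. A call in it does not single out a gene. For Slc6a18, leaving out 21 mo replicate 3 turned the sign of the first difference to 0.13. Both genes were lower in 21 mo replicates 2 and 3 than in replicate 1, and the proximal tubule markers summed to 20637, 10392 and 3164 CPM in those libraries. The part of the markers in these values was not tested.

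Slc6a20b and Slc6a20a are both carriers of proline and other imino acids, and lie 2205 bases apart on chromosome 9. Slc6a20b had 229 to 266 CPM in 18 mo, 271, 126 and 21.1 CPM in 21 mo, and 266 to 292 CPM in 21 mo/O304. The 21 mo/O304 libraries thus lay above those of 18 mo, while the 21 mo libraries spread from within the O304 range down to 21.1 CPM, in the order of the proximal tubule marker sums. Its difference of O304 from 21 mo was 1.91 without 21 mo replicate 1, with an adjusted p of 0.0497 by edgeR, and 0.49 without 21 mo replicate 3. The first of these fits called 23.1% of all genes. Slc6a20a, with a mean of 3.07 FPKM against 25.1 FPKM for Slc6a20b, had 6.55 to 19.5 CPM in the 9 libraries. Reads shared by the pair could be split between them in the counting, and the 2 values are uncertain to that extent.

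Slc36a2, a proton-coupled carrier of glycine and proline that is also used as a marker of brown fat cells, was near the limit of detection. It had 0, 2 and 4 counts in 18 mo, 2, 9 and 38 counts in 21 mo, and 38, 6 and 12 counts in 21 mo/O304. All O304 libraries were above all 18 mo libraries, with a fitted difference of 3.15 (SE 1.16) and an adjusted p of 0.457 by edgeR, which rests on these few counts. Only 21 mo replicate 3 and 21 mo/O304 replicates 1 and 3 reached the filter's minimum of 10 counts. Slc36a2 was thus tested only because it was high in these libraries of the later groups. Its separation from 18 mo was favoured by the filter and carries no weight. Markers of fat cells summed to at most 4.75 CPM in 18 mo, 2.57 CPM in 21 mo and 5.96 to 70.8 CPM in 21 mo/O304, and their part in the Slc36a2 level was not tested.

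The 5 listed proteins that hold carriers at the brush border included Cltrn, which Slc6a19 needs to reach the membrane, and the scaffolds Slc9a3r1 and Pdzk1. Of the 5, 0 had an adjusted p under 0.05 in any comparison by edgeR, and 1 was lower at an unadjusted p under 0.05 in 21 mo against 18 mo, beside 12% of all genes. That gene was Slc9a3r1, which had 451 to 522 CPM in 18 mo, 201 to 356 CPM in 21 mo and 355 to 364 CPM in 21 mo/O304, a difference of -0.79 (SE 0.21) with an adjusted p of 0.0827. Pdzk1 had 76.5 to 452 CPM in 21 mo, all below the 460 to 553 CPM of 18 mo. Cltrn had 1230 to 1548 CPM in 18 mo, 1542, 985 and 411 CPM in 21 mo, and 1720 to 1838 CPM in 21 mo/O304, where it was above both other groups without overlap. Its 21 mo libraries, too, lay in the order of the proximal tubule marker sums of 20637, 10392 and 3164 CPM.

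The carriers of cystine, dibasic and acidic amino acids were 4, and included the most abundant member. Slc7a13 (chromosome 4, 19818725 to 19842218) encodes a light chain that carries cystine and acidic amino acids together with Slc3a1 in the straight part of the proximal tubule, and is known to be higher in male than in female mouse kidney. It had 977, 1051 and 879 CPM in 18 mo. In 21 mo it had 1020.0, 246 and 5.08 CPM, and in 21 mo/O304 1293, 1266 and 1188 CPM. The O304 libraries were thus above every library of the other groups, and the 21 mo libraries ran from the 18 mo level down to 0.525% of the 18 mo mean. The fitted difference was -1.19 (SE 1.15) in 21 mo relative to 18 mo and 1.56 (SE 1.16) in 21 mo/O304 relative to 21 mo, with adjusted p values of 0.523 and 0.435 by edgeR. Leaving out 21 mo replicate 1 moved the first to -2.93 and the second to 3.31, and leaving out 21 mo replicate 3 moved them to -0.63 and 0.99.

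Slc7a13 was below all 14 proximal tubule markers in the 2 low libraries, though only just below the lowest of them in 21 mo replicate 2. In 21 mo replicate 2 it was at 25.4% of the 18 mo mean, where the 14 proximal tubule markers were at 27.6% to 80.1%, and in 21 mo replicate 3 it was at 0.525%, where they were at 3.13% to 64.9%. Set against their summed level, Slc7a13 gave 38 to 50 CPM per 1000 marker CPM in 18 mo, 49.4, 23.7 and 1.61 in 21 mo, and 47.5 to 58.9 in 21 mo/O304. The other carriers of the same role went the other way on this scale: Slc3a1 gave 16.3 to 23.5 in 18 mo and 36.8 in 21 mo replicate 3, and Slc1a1 gave 8.22 to 9.39 and 18.1. A fall was not particular to Slc7a13, since Slc6a20b gave 10.5 to 11.7 in 18 mo and 6.67 in 21 mo replicate 3. Slc6a18 and Slc6a19 rose to 70.4 and 27.5 in that library. These are descriptions of single libraries with no test.

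Slc3a1, the heavy chain whose loss causes cystinuria (chromosome 17, 85028347 to 85064243), had 460.2, 447 and 378 CPM in 18 mo, 642, 320.4 and 116 CPM in 21 mo, and 577, 499 and 385 CPM in 21 mo/O304. Both its highest and its lowest library were in the 21 mo group. Its difference of 21 mo from 18 mo was -0.25 (SE 0.49), and it changed sign to 0.15 without 21 mo replicate 3. The FPKM of Slc7a13 was 2.29 to 2.53 times that of its partner Slc3a1 in 18 mo, 1.71, 0.827 and 0.0470 times in 21 mo, and 2.42 to 3.33 times in 21 mo/O304. For Slc7a9, the other light chain that pairs with Slc3a1 and takes up cystine, lysine and arginine, this ratio was 0.191 to 0.337 in 18 mo, 0.198 to 0.325 in 21 mo and 0.173 to 0.261 in 21 mo/O304. The ratio of Slc7a13 to Slc3a1 left the 18 mo range in all 3 of the 21 mo libraries, and that of Slc7a9 to Slc3a1 in none, and this was not tested.

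Slc1a1, the brush border carrier of glutamate and aspartate, had 184 to 226 CPM in 18 mo, 224, 155 and 57.2 CPM in 21 mo, and 209 to 264 CPM in 21 mo/O304. Its order over the 21 mo libraries was that of Slc7a9, which had 102 to 148 CPM in 18 mo, 148, 88.3 and 43.9 CPM in 21 mo and 116 to 122 CPM in 21 mo/O304. Both genes had the order of the proximal tubule marker sums, which were 20637, 10392 and 3164 CPM. The smallest adjusted p of either gene in any comparison was 0.352 by edgeR. The difference of Slc7a9 in 21 mo from 18 mo was -0.89 without 21 mo replicate 1, with an adjusted p of 0.0466 by edgeR. Without 21 mo replicate 3 it was -0.091. The fit without 21 mo replicate 1 called 25.4% of all genes.

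**Figure D3:**
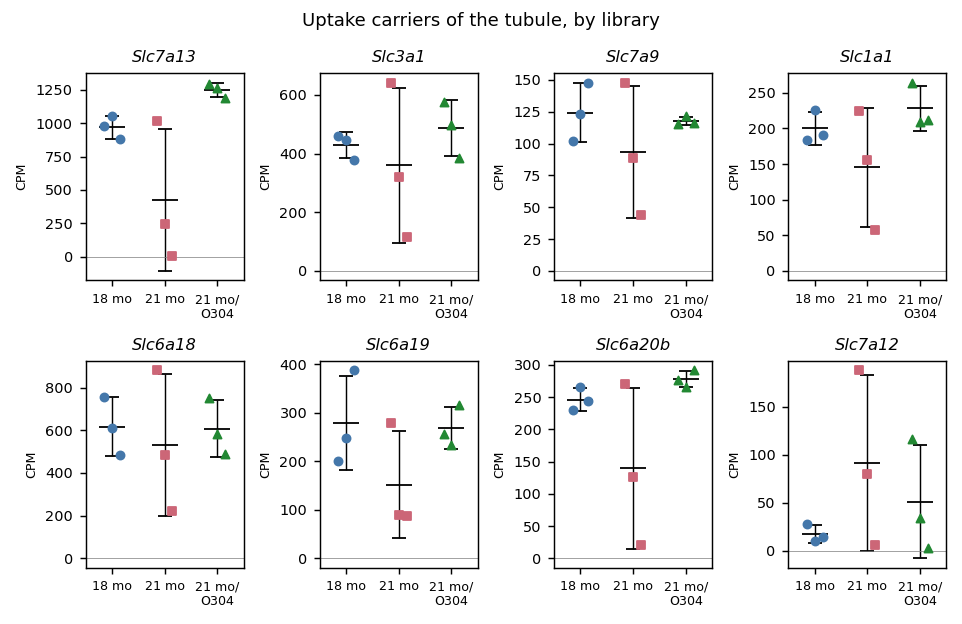
CPM of 7 brush border carriers and of Slc7a12 in each library of the 3 groups, with the mean and 1 SD as bars (n = 3 per group). In 21 mo the 7 carriers are within or above the 18 mo range in replicate 1 and lowest in replicate 3, most of all Slc7a13 at 5.08 CPM, while Slc7a12 reaches 188 CPM in 21 mo replicate 1.

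Slc7a12, a less studied light chain of the same family, varied widely within every group. It had 28.2, 9.49 and 14.5 CPM in 18 mo, 188, 80.2 and 5.50 CPM in 21 mo, and 116, 33.7 and 2.42 CPM in 21 mo/O304. Both later groups held a library above and a library below the whole 18 mo range. The difference of 21 mo from 18 mo was 2.39 (SE 1.31) with an adjusted p of 0.274 by edgeR, and that of O304 from 21 mo, -0.84 (SE 1.24), turned to 0.25 without 21 mo replicate 1.

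The 8 members of basolateral exit and exchange divided by abundance. The heavy chain Slc3a2 and the light chain Slc7a7, which together exchange dibasic for neutral amino acids and whose loss in the light chain causes lysinuric protein intolerance, had means of 45.8 and 45.1 FPKM. Slc3a2 had 144 to 224 CPM in 18 mo, 146 to 184 CPM in 21 mo and 164 to 172 CPM in 21 mo/O304. Its group means were close, at 171, 162 and 167 CPM, though the 18 mo libraries had an SD of 46.1 CPM. Its difference was -0.08 (SE 0.19) in 21 mo against 18 mo and 0.05 (SE 0.19) under O304. Slc7a7 had 136 to 222 CPM in 18 mo, 169.5, 104 and 109.9 CPM in 21 mo, and 161 to 174 CPM in 21 mo/O304. The groups overlapped for both genes in each comparison.

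Slc43a2, an exporter of branched-chain and aromatic amino acids (chromosome 11, 75531694 to 75577575), had 144, 155 and 192 CPM in 18 mo, 111, 97.1 and 95.6 CPM in 21 mo, and 145, 98.9 and 125 CPM in 21 mo/O304. All 21 mo libraries lay below all 18 mo libraries, and the O304 libraries overlapped with both groups. The difference of 21 mo from 18 mo was -0.69 (SE 0.18), with an adjusted p of 0.0775 by edgeR and 0.0102 by DESeq2. It stayed between -0.78 and -0.54 when each library was left out in turn, and without 21 mo replicate 1 its adjusted p was 0.0250. That last fit called 25.4% of all genes. The difference of 21 mo/O304 from 18 mo was -0.41 (SE 0.17), with an adjusted p of 0.496.

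Slc7a5 and Slc7a6 are light chains that pair with Slc3a2, the first importing large neutral amino acids in exchange for glutamine and the second exchanging arginine for neutral amino acids. They were low, with means of 1.35 and 1.30 FPKM. Slc7a6 (chromosome 8, 106168857 to 106198706) had 5.02, 2.96 and 3.96 CPM in 18 mo, 6.22, 7.22 and 19.1 CPM in 21 mo, and 4.25, 2.92 and 3.82 CPM in 21 mo/O304. The 21 mo libraries were above every library of the other groups, and replicate 3 was the highest of all. The difference from 18 mo was 1.45 (SE 0.44) in 21 mo, and the O304 group differed from 21 mo by -1.57 (SE 0.44), with adjusted p values of 0.0954 and 0.175 by edgeR and of 0.0187 and 0.0194 by DESeq2. Without 21 mo replicate 3 these differences were 0.74 and -0.87, and without replicate 1 they were 1.74 and -1.85, with adjusted p values of 0.0190 and 0.0184 by edgeR. Slc7a5 had 2.38 to 5.33 CPM in 18 mo, 3.61, 7.73 and 14.9 CPM in 21 mo and 1.91 to 4.83 CPM in 21 mo/O304, so that only 21 mo replicates 2 and 3 lay above the rest. Its differences were 1.30 (SE 0.55) and -1.46 (SE 0.56), with adjusted p values of 0.180 and 0.204 by edgeR. Without 21 mo replicate 3 they were 0.65 and -0.83, and without replicate 1 they were 1.68 and -1.84, with adjusted p values of 0.0358 and 0.0297. The fit without 21 mo replicate 1, used here for both genes, called 25.4% and 23.1% of all genes.

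The osmolyte and creatine carriers were 4. Slc6a8, which takes up creatine (X chromosome, 73673150 to 73682502), had 286 to 348 CPM in 18 mo, 229.9, 243 and 232 CPM in 21 mo, and 254, 253 and 228 CPM in 21 mo/O304. It was lower in both later groups than in any 18 mo library, and these groups overlapped with each other. The difference from 18 mo was -0.41 (SE 0.14) in 21 mo and -0.35 (SE 0.14) in 21 mo/O304, with adjusted p values of 0.112 and 0.471 by edgeR, and 0.0164 for the first by DESeq2. Its 21 mo libraries lay close together, replicate 3 included. Slc6a6, the taurine carrier, had 422, 380.5 and 417 CPM in 18 mo, 751, 455 and 506 CPM in 21 mo, and 531, 429 and 451 CPM in 21 mo/O304. Both later groups lay above 18 mo without overlap, by 0.49 (SE 0.22) and 0.21 (SE 0.22), with adjusted p values of 0.192 and 0.804, and the first was 0.26 without 21 mo replicate 1.

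Slc6a13, a basolateral carrier of GABA and taurine, had 109 to 166 CPM in 18 mo, 148, 72.3 and 39.2 CPM in 21 mo and 88.9 to 146 CPM in 21 mo/O304. Its order over the 21 mo libraries was that of the proximal tubule marker sums of 20637, 10392 and 3164 CPM, and without 21 mo replicate 1 its difference from 18 mo was -1.22, with an adjusted p of 0.0284 by edgeR. Without 21 mo replicate 3 that difference was -0.27. The fit without 21 mo replicate 1 called 25.4% of all genes. The neighbour Slc6a12, the betaine carrier of the renal medulla, lies 5343 bases away on chromosome 6 and was far lower, with a mean of 0.346 FPKM. Slc6a12 had 65, 0 and 1 counts in 18 mo, 24, 49 and 13 counts in 21 mo, and 7, 3 and 3 counts in 21 mo/O304. A single 18 mo library thus set the level of its group. The difference of 21 mo/O304 from 18 mo was -2.35 (SE 1.5) and became 2.87 without 18 mo replicate 1. Markers of the thick limb, distal tubule and collecting duct summed to 8559 CPM in 18 mo replicate 1 and to 4253 and 4414 CPM in the other 18 mo libraries. Umod, at 4767 CPM, and Slc12a1, at 2239 CPM, made up most of the first sum. They and Aqp2, Aqp3, Hsd11b2 and Slc4a1 were highest in replicate 1 among the 18 mo libraries. Slc12a3, Calb1, Pvalb, Scnn1g, Atp6v1g3 and Slc26a4 were lowest in it. The part of these markers in the Slc6a12 value was not tested.

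Of the 7 members that supply cells with neutral amino acids, 6 were tested. Slc38a2, a sodium-coupled glutamine and alanine carrier known to be induced when amino acids are scarce (chromosome 15, 96687392 to 96699730), had 79.2, 57.6 and 67.4 CPM in 18 mo, 83.4, 201 and 153 CPM in 21 mo, and 86.4, 82.1 and 63.2 CPM in 21 mo/O304. All 21 mo libraries were above all 18 mo libraries, replicate 1 only just, and overlapped with the O304 libraries through replicate 1. The difference was 1.10 (SE 0.29) for 21 mo against 18 mo and -0.92 (SE 0.29) for O304 against 21 mo, with adjusted p values of 0.0816 and 0.180 by edgeR. Without 21 mo replicate 1 they were 1.4 and -1.21, with adjusted p values of 0.00463 and 0.00816 by edgeR. Without 21 mo replicate 2 they were 0.78 and -0.61. The fit without 21 mo replicate 1 called 25.4% and 23.1% of all genes.

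Slc38a1, its close relative, lies 44479 bases away on the same strand and was much lower on the length-corrected scale, at a mean of 0.221 against 10.6 FPKM. It had 2.48, 2.53 and 2.83 CPM in 18 mo, 4.08, 5.68 and 7.38 CPM in 21 mo, and 2.38, 5.13 and 2.93 CPM in 21 mo/O304. The 21 mo libraries were above the 18 mo libraries without overlap, by 1.13 (SE 0.35) with an adjusted p of 0.0991 by edgeR and 0.0277 by DESeq2. That difference was 1.34 without 21 mo replicate 1, with an adjusted p of 0.0265 by edgeR, and 0.88 without 21 mo replicate 3. The first of these fits called 25.4% of all genes. 21 mo/O304 replicate 2 lay within the 21 mo range and the other O304 libraries near 18 mo, so that O304 against 21 mo gave -0.72 (SE 0.34) with an adjusted p of 0.264.

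The exchanger Slc1a4 of alanine, serine and cysteine had 31.6 to 54.1 CPM in 18 mo, 28.5 to 39.7 CPM in 21 mo and 35.6 to 49.4 CPM in 21 mo/O304. Its relative Slc1a5, which imports glutamine, had 33.3 to 43.9 CPM in 18 mo, 26.8, 38.2 and 82.6 CPM in 21 mo and 28.2 to 48.7 CPM in 21 mo/O304. Slc6a14, a broad carrier of neutral and cationic amino acids on the X chromosome, was the lowest tested member at 0.126 FPKM. It had 4 to 7 counts in every 18 mo and 21 mo library and 11, 13 and 11 counts in the O304 libraries. O304 was above both other groups without overlap, by 1.15 (SE 0.40) against 21 mo and 1.13 (SE 0.40) against 18 mo, with adjusted p values of 0.190 and 0.449 by edgeR. Only the O304 counts reached the filter's minimum of 10, so Slc6a14 was tested only because it was high there. Its separation from the other groups was therefore nearly set by the filter and carries no weight.

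Of the 4 members that supply cationic amino acids and cystine, Slc7a1 and Slc7a2 were tested, and both carry arginine. Slc7a1, the common form, had 14.8, 6.04 and 9.28 CPM in 18 mo, 11.1, 17.1 and 35.5 CPM in 21 mo, and 8.43, 8.76 and 5.73 CPM in 21 mo/O304. The O304 libraries were below all 21 mo libraries, by -1.48 (SE 0.46) with an adjusted p of 0.177 by edgeR and 0.0332 by DESeq2. That difference was -0.88 without 21 mo replicate 3, and -1.79 with an adjusted p of 0.0202 by edgeR without replicate 1. Against 18 mo, the 21 mo group overlapped through replicate 1, and its difference of 1.08 (SE 0.45) was 0.47 without 21 mo replicate 3, and 1.41 with an adjusted p of 0.0374 without replicate 1. Slc7a2, a form known from activated macrophages and from liver, had 1.92, 1.54 and 5.43 CPM in 18 mo, 3.21, 7.10 and 23.8 CPM in 21 mo, and 1.98, 3.58 and 5.09 CPM in 21 mo/O304. Its differences were 1.94 (SE 0.76) and -1.69 (SE 0.75), with adjusted p values of 0.154 and 0.245, and were 0.78 and -0.53 without 21 mo replicate 3. They were 2.39 and -2.14 without 21 mo replicate 1, with adjusted p values of 0.0318 and 0.0475 by edgeR. That fit, used for both genes, called 25.4% and 23.1% of all genes in the 2 comparisons.

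Slc7a11, the light chain of the cystine-glutamate exchanger that feeds glutathione synthesis, did not pass the filter. It had 123 counts in 21 mo replicate 3, 11 in 21 mo replicate 2 and at most 6 in each of the other 7. The same library had the highest level of Slc7a1, Slc7a2, Slc7a5 and Slc7a6. The 8 macrophage markers summed to 301 to 509 CPM in 18 mo, to 755, 1177 and 3607 CPM in 21 mo and to 554 to 595 CPM in 21 mo/O304. Lyz2 made up much of the 21 mo sums, at 317, 691 and 2197 CPM. Each marker was highest in 21 mo replicate 3, but Csf1r, at 82.1, 68.3 and 125 CPM in 21 mo, was lower in replicate 2 than in replicate 1. Over the same 21 mo libraries the fibroblast and smooth muscle markers summed to 140, 496 and 1203 CPM and the injury markers to 1329, 12296 and 14160 CPM, and the part of these marker sets in the levels was not tested.

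Of the 5 lysosomal and proton-coupled carriers, 4 were tested, and Slc36a1 had the smallest p of all members in both comparisons that involve 21 mo. Slc36a1 moves small neutral amino acids with protons out of lysosomes and across the brush border (chromosome 11, 55204350 to 55236330). It had 93.2, 118 and 102 CPM in 18 mo, 67.0, 55.5 and 35.3 CPM in 21 mo, and 102, 130.1 and 98.7 CPM in 21 mo/O304. The 21 mo libraries were below every library of the other groups, including replicate 1, in which most brush border carriers were within or above the 18 mo range. The difference was -0.99 (SE 0.23) for 21 mo against 18 mo, with an adjusted p of 0.0699 by edgeR and 0.00488 by DESeq2. It was 1.07 (SE 0.23) for 21 mo/O304 against 21 mo, with an adjusted p of 0.175 by edgeR and 0.00424 by DESeq2. Leaving out each library in turn kept these differences between -1.18 and -0.78 and between 0.86 and 1.27, and without 21 mo replicate 1 the adjusted p values were 0.00961 and 0.00998 by edgeR. That last fit called 25.4% and 23.1% of all genes. Per 1000 CPM of proximal tubule markers Slc36a1 gave 4.40 to 4.76 in 18 mo, 3.24, 5.34 and 11.2 in 21 mo and 3.95 to 5.59 in 21 mo/O304, so on that scale the 21 mo libraries lay on both sides of the 18 mo range.

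Slc38a7 and Slc38a9 varied little. Slc38a7, a glutamine exporter of lysosomes, had 22.9 to 24.6 CPM in 18 mo, 20.9 to 24.7 CPM in 21 mo and 23.1 to 23.7 CPM in 21 mo/O304, with differences of -0.07 (SE 0.11) and 0.05 (SE 0.11). Slc38a9, the arginine sensor that signals to mTORC1, had 11.5 to 15.1 CPM in 18 mo, 12 to 12.4 CPM in 21 mo and 12.9 to 16.5 CPM in 21 mo/O304. Its O304 libraries were above those of 21 mo without overlap, by 0.24 (SE 0.16) with an adjusted p of 0.390 by edgeR.

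**Figure D4:**
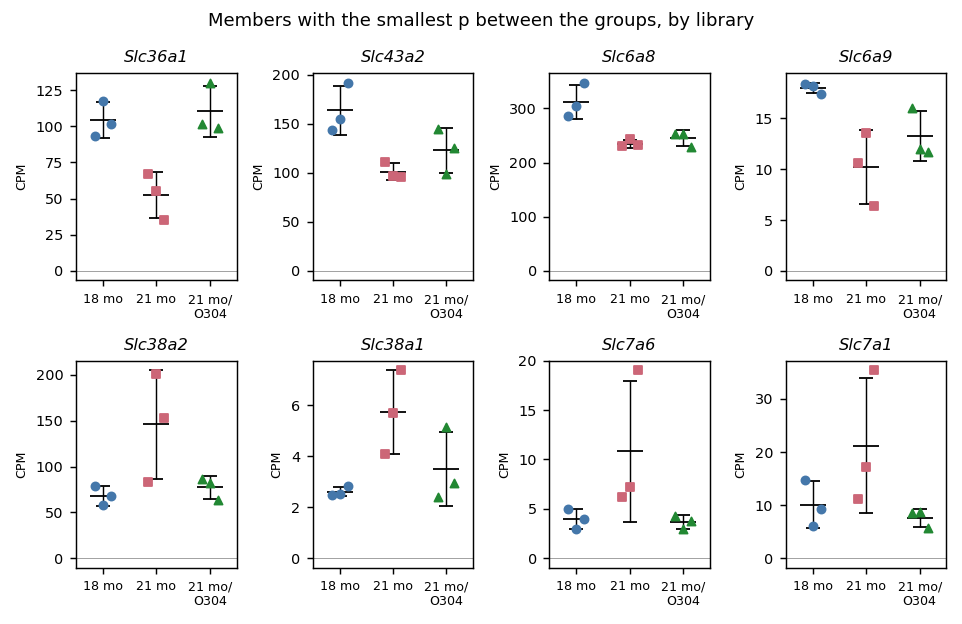
CPM in each library of 8 members with small p values in 21 mo against 18 mo or 21 mo/O304 against 21 mo, with the mean and 1 SD as bars (n = 3 per group). Slc36a1, Slc43a2, Slc6a8 and Slc6a9 are lower in all 3 of the 21 mo libraries than in 18 mo, and Slc38a2, Slc38a1 and Slc7a6 higher in all 3.

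Amino acids reach mTORC1 through the Ragulator complex, the Rag GTPases and their sensors, and 23 genes of this machinery were listed and tested. None had an adjusted p under 0.05 by edgeR in any comparison. In 21 mo against 18 mo, 4 were higher and 6 lower at an unadjusted p under 0.05, beside 14% and 12% of all genes, and the median was -0.20 beside 0.03 for all genes. Lamtor2, a Ragulator subunit, had 84.7 to 99.7 CPM in 18 mo, 45 to 61.6 CPM in 21 mo and 59.0 to 84.9 CPM in 21 mo/O304, and its difference of -0.85 (SE 0.18) had an adjusted p of 0.0626. Castor2, a homologue of the arginine sensor Castor1, had 117 to 154 CPM in 18 mo, 55.5 to 101 CPM in 21 mo and 110.5 to 131 CPM in 21 mo/O304. Under O304 against 21 mo, 4 genes were higher and 1 lower at an unadjusted p under 0.05, beside 8.27% and 12.4% of all genes, with a median of 0.16 beside -0.02 for all genes.

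Scarcity of amino acids acts on many carriers through the transcription factor Atf4, and 20 genes of that response were listed. None had an adjusted p under 0.05 by edgeR in any comparison. In 21 mo against 18 mo, 17 of 20 had a positive difference, the median was 0.75 beside 0.03 for all genes, and 9 were higher and 1 lower at an unadjusted p under 0.05, beside 14% and 12% of all genes. In the same comparison 7 of 7 tubule injury, 8 of 8 macrophage and 9 of 9 fibroblast and smooth muscle markers had a positive difference, with medians of 3.64, 1.67 and 1.03, and their part in the Atf4 list was not tested. Asns, which makes asparagine, had 2.66 to 4.34 CPM in 18 mo, 5.75, 11.1 and 15.7 CPM in 21 mo, and 5.16 to 6.11 CPM in 21 mo/O304, a difference of 1.69 (SE 0.36) with an adjusted p of 0.0631. Mthfd2, of mitochondrial folate metabolism, had 2.40 to 4.27, then 4.88, 8.92 and 13.7, and then 4.20 to 4.71 CPM. In both genes the 21 mo libraries were above those of 18 mo and the highest was replicate 3.

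Under O304 against 21 mo, 16 of the 20 Atf4 response genes had a negative difference, the median was -0.62 beside -0.02 for all genes, and 1 was higher and 7 lower at an unadjusted p under 0.05, beside 8.27% and 12.4% of all genes. The injury, macrophage and fibroblast markers had medians of -3.42, -1.36 and -1.02 in this comparison, with 7 of 7, 8 of 8 and 8 of 9 negative, and their part was not tested. Atf4 itself had 98.8 to 112 CPM in 18 mo, 90.7, 143 and 148 CPM in 21 mo, and 79.1 to 83.0 CPM in 21 mo/O304, with all O304 libraries below all others. Phgdh, the first enzyme of serine synthesis, had 10.8, 23.6 and 41.3 CPM in 21 mo and 6.40 to 8.76 CPM in 21 mo/O304, a difference of -1.77 (SE 0.47) with an adjusted p of 0.175. Since both comparisons use the same 21 mo libraries, the opposite signs are not separate pieces of evidence.

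The neurotransmitter carriers were the largest group with 15 members, but 9 of them did not pass the filter. Those tested were low: Slc6a15, a brain carrier of branched-chain amino acids and proline, had the highest mean at 3.42 FPKM, followed by Slc6a9 at 2.60 FPKM. Slc6a9, the glycine carrier GlyT1, had 18.4, 18.1 and 17.4 CPM in 18 mo, 10.6, 13.6 and 6.41 CPM in 21 mo, and 16.1, 12 and 11.7 CPM in 21 mo/O304. It was lower in both later groups than in any 18 mo library, by -0.82 (SE 0.26) and -0.44 (SE 0.26), with adjusted p values of 0.103 and 0.626 by edgeR and of 0.0423 for the first by DESeq2. Slc6a15 had 23.8 to 27.7 CPM in 18 mo, 32.4, 29.6 and 13.7 CPM in 21 mo and 28.6 to 34.1 CPM in 21 mo/O304.

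Slc6a4, the serotonin carrier, had 7.18 to 13.1 CPM in 18 mo, 9.16, 5.34 and 1.47 CPM in 21 mo and 5.73 to 8.20 CPM in 21 mo/O304, and the groups overlapped. Its difference of 21 mo from 18 mo was -1.63 without 21 mo replicate 1, with an adjusted p of 0.0487 by edgeR, and -0.56 without 21 mo replicate 3. The first of these fits called 25.4% of all genes. Slc6a17, a carrier of neutral amino acids into synaptic vesicles, had 39.4, 12.6 and 13.6 CPM in 18 mo, 27.2, 22.1 and 18.2 CPM in 21 mo, and 18.8, 9.0 and 4.71 CPM in 21 mo/O304. Its difference of O304 from 21 mo was -1.05 (SE 0.55) with an adjusted p of 0.297 by edgeR, and the groups overlapped. The glutamate carrier Slc1a3 had 1.07 to 2.04 CPM in 18 mo, 1.74 to 3.25 CPM in 21 mo and 2.21 to 3.84 CPM in 21 mo/O304. It was higher under O304 than in 18 mo without overlap, by 0.86 (SE 0.39) with an adjusted p of 0.526. The 8 markers of neurons and glia summed to 12.9 to 38.1 CPM over the 9 libraries. The 8 adrenal markers summed to 2.74 to 5.31 CPM, and 4 to 7 of them were at 0 in each library.

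Among the less studied members, Slc38a10 was abundant, with a mean of 28.8 FPKM. It had 239.9, 202 and 210.0 CPM in 18 mo, 199.7, 164 and 154 CPM in 21 mo, and 203, 171 and 177 CPM in 21 mo/O304. The 21 mo libraries were below the 18 mo libraries by a narrow gap, with a difference of -0.33 (SE 0.15) and an adjusted p of 0.201 by edgeR. Slc38a6 had 8.79 to 11.7 CPM in all libraries and was lower under O304 than in 18 mo without overlap, by -0.25 (SE 0.16) with an adjusted p of 0.651. Slc7a6os, the neighbour caught by its symbol, had 17.8 to 22 CPM in all libraries.

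Of the 19 members that were not tested, 4 had no count in any library, Slc7a14 and Slc6a21 among them. At these depths a count of 0 allows up to 3 counts, or 0.137 to 0.201 CPM per library, for counting error only. The other 15 had at least 1 count somewhere, and apart from Slc7a11 none had more than 12 counts in a library. They included the dopamine, noradrenaline and neuronal glycine carriers Slc6a3, Slc6a2 and Slc6a5, the serine carrier Slc7a10, and the glutamate carriers Slc1a6 and Slc1a7. By family, 5 of 7 Slc1 members passed the filter, 2 of 2 in Slc3, 13 of 21 in Slc6, 11 of 16 in Slc7, 3 of 4 in Slc36, 8 of 11 in Slc38 and 3 of 3 in Slc43.

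Several members that lie side by side in the genome differed widely in level. Within 200000 bases of each other there were 13 pairs made of 20 members, and some joined an abundant gene with one at or near 0. Slc6a18 and Slc6a19 lie next to Slc6a3, which had at most 2 counts in any library. Slc36a1 lies 19273 bases from Slc36a2, which had at most 2.21 CPM, and 52642 bases from Slc36a3, which had at most 0.201 CPM. Of the 64 members 26 overlap another annotated gene, among them Slc6a19, Slc6a20a, Slc3a1 and Slc6a9, and the strand setting of the counting was not given in the sources used here, so reads of the overlapping genes could enter their values.

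The roles differed in how they were spread over the 21 mo libraries. The mean log2 CPM of the 4 cystine, dibasic and acidic carriers, relative to the 18 mo mean, was 0.27, -0.81 and -3.17 in 21 mo replicates 1, 2 and 3, and 0.04 to 0.29 in 21 mo/O304. Slc7a13 weighed most in the lowest mean: the median of the 4 was -1.84 in replicate 3, where Slc7a13 was at 0.525% of the 18 mo mean and Slc3a1, Slc1a1 and Slc7a9 were at 27.2%, 28.6% and 35.4%. For the 2 cationic carriers it was 0.28, 1.15 and 2.54, and -0.25 to 0.19 in 21 mo/O304. The mean of the 4 lysosomal carriers lay between -0.22 and 0.17 in all libraries, but its members went both ways: in 21 mo replicate 3 Slc36a1 was at 33.9% and Slc36a4 at 196% of the 18 mo mean. Counted by gene, 13 of the 45 tested members were above the 18 mo range and 9 below it in 21 mo replicate 1, against 17 and 18 in replicate 2 and 15 and 22 in replicate 3. In 21 mo/O304 the counts were 15 and 5, 16 and 12, and 12 and 14, so a library outside the narrow range of 3 mice was common in every later group. The share of all genes outside that range was not computed, so these counts cannot be read as a trait of the transporters.

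**Figure D5:**
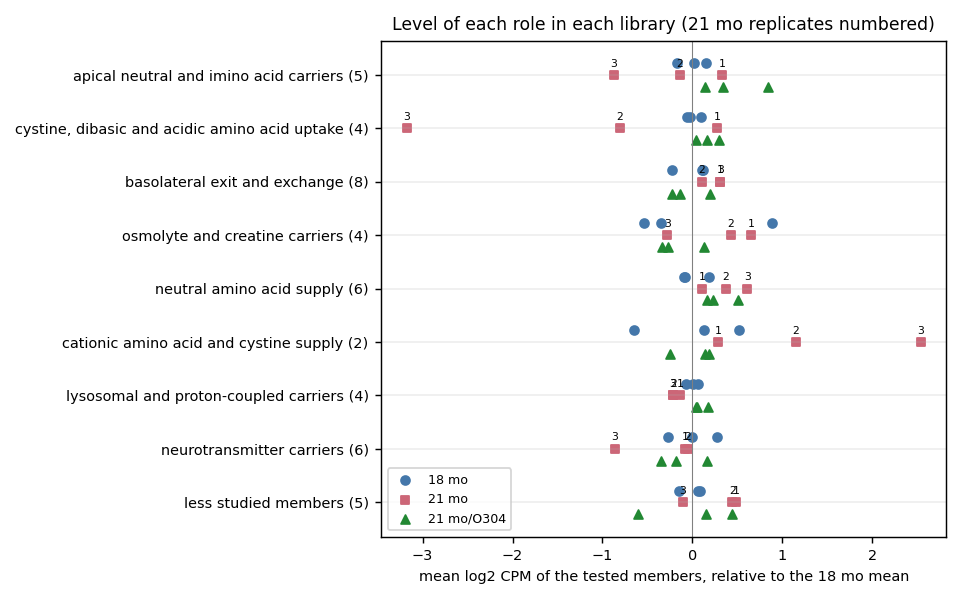
Mean log2 CPM of the tested members of each role in each library, relative to the mean of the 18 mo libraries, with the 3 replicates of 21 mo numbered. In 21 mo replicate 3 the cystine, dibasic and acidic carriers reach a mean of -3.17, with a median of -1.84 because Slc7a13 is far below the other 3, and the cationic carriers reach 2.54, while the 21 mo/O304 libraries lie near 0 for both roles.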

How the data were processed

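Kidney RNA-seq of 9 mice in 3 groups was analysed from the deposited table, in which every sample column was assigned to a mouse. The counts are whole numbers per gene made by the authors, who filtered the reads for quality and used HISAT2 2.0.5 for alignment and featureCounts 1.5.0-p3 for counting. The FPKM values, also from the authors, divide each count by gene length and library size. The table's log2 fold changes and p-values are the authors' own comparisons, made with DESeq2 1.20.0, and were not used. Strandedness and the handling of multi-mapped reads are not given in the sources used here. Coordinates are those of the table, and the submitters' processing notes name GRCm38 and mm10. All 64 members were matched by symbol to RefSeq GRCm38.p6 and overlap the gene of that name. No sequences are printed, and some genes are not reported here by name.

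Genes were filtered with filterByExpr (minimum count 10, minimum total 15), which left 15902 of 54532, and libraries were scaled by TMM. One quasi-likelihood model (edgeR 4.0.16 in R 4.3.3) took in all 9 libraries with a mean for each group, and its tests were two-sided with Benjamini-Hochberg adjustment over all genes tested and a threshold of 0.05. DESeq2 1.42.0, limma 3.58.1 and other settings served as alternatives. The code was tested on simulated data. Every pair of libraries differed at 22040 genes or more, so none was counted as a duplicate. The p-values set each difference against a spread between mice that is shared by all groups, with 3 mice in each. Biological coefficients of variation were 18.0% in 18 mo, 44.0% in 21 mo and 20.6% in 21 mo/O304. The spread of the 21 mo libraries therefore also enters 21 mo/O304 against 18 mo, which holds none of them.

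The transporters, their roles, the gene lists and the markers were chosen with earlier results of these data known. Members were named where they had 1 of the 10 smallest p values of a comparison or 1 of the 2 highest mean FPKM values of their role. For other lists up to 3 genes with the smallest p in a comparison were named. Slc7a9, Slc1a1, Slc6a20a, Slc6a20b, Slc6a13, Slc1a5, Slc38a9, Slc6a4, Pdzk1 and Cltrn fall outside this rule where described and were added after their values were seen.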

Additional observations from a re-analysis of the deposited data

How the results depend on the processing

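The number of members with an adjusted p under 0.05 was 0 in each comparison by edgeR, and stayed 0 with upper-quartile normalization, with only the 6 libraries compared and with limma-trend on FPKM. The fit with the replicate number as a block also called 0 in each comparison. The numbers are not said to mark a shared batch or litter. Deviations from the group means correlated at -0.13 to 0.17 between same-numbered libraries (median 0.12, 5 of 9 pairs over 0.1) and had a median of -0.03 between others (3 of 18 over 0.1). Not every library correlated best with its own number, and the numbers were not taken as pairs. DESeq2 called 8 in 21 mo against 18 mo, 3 in 21 mo/O304 against 21 mo and 0 in 21 mo/O304 against 18 mo, beside 7.36%, 3.3% and 0.443% of all genes. These shares are over all genes DESeq2 fitted, among them many that failed the edgeR filter. The 8 DESeq2 calls were Slc36a1, Slc43a2, Slc6a8 and Slc6a9, which were lower, and Slc38a2, Slc7a6, Slc38a1 and, though it failed the edgeR filter, Slc7a11, which were higher. The 3 DESeq2 calls were Slc36a1, higher, and Slc7a6 and Slc7a1, lower. With no filter on low counts edgeR called 2, 0 and 0, beside 2.04%, 0.0602% and 0% of all genes. Limma voom with sample quality weights called 23, 20 and 0, beside 52.9% and 41.1% of all genes in the first 2. It gave 21 mo replicate 2 a weight of 9.11 and 21 mo replicates 1 and 3 weights of 0.223 and 0.132. Leaving out each library gave 0 to 13 in 21 mo against 18 mo, 0 to 9 in 21 mo/O304 against 21 mo and 0 to 0 in the last comparison, and the upper values came without 21 mo replicate 1. Every other library left out gave 0. The cause of these differences between settings was not tested.

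When each library was left out in turn, the sign turned at least once for 14 of the 45 tested members in 21 mo against 18 mo, 15 in 21 mo/O304 against 21 mo and 18 in 21 mo/O304 against 18 mo. The values that follow cover the members chosen by the naming rule, for which it turned in 4 of 22, 6 of 23 and 1 of 10. With voom the log2 difference became 0.20 for Slc6a15 in 21 mo against 18 mo, 0.88 for Slc6a12 in 21 mo/O304 against 18 mo, and 0.018 for Slc6a6 and -0.019 for Slc6a9 in 21 mo/O304 against 21 mo. With a library left out, the difference of 21 mo from 18 mo ran from -0.95 to 0.15 for Slc3a1, -0.20 to 0.18 for Slc3a2, -0.27 to 0.22 for Slc6a15 and -0.79 to 0.13 for Slc6a18. That of 21 mo/O304 from 18 mo ran from -2.93 to 2.87 for Slc6a12. That of 21 mo/O304 from 21 mo ran from -0.0030 to 0.20 for Slc38a10, -0.0012 to 0.10 for Slc38a7, -0.016 to 0.14 for Slc3a2, -0.019 to 0.49 for Slc6a15, -0.16 to 0.77 for Slc6a18 and -2.35 to 0.25 for Slc7a12. Depth limits members such as Slc36a2, Slc6a12 and Slc6a14, whose values rest on few counts, and 3 mice per group limit the rest.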

Other observations

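Amino acid and peptide carriers of other families gave 8 tested genes of 12 listed, and none had an adjusted p under 0.05 by edgeR in any comparison. In 21 mo against 18 mo, 3 had a positive and 5 a negative difference, with a median of -0.02. Pqlc2, an exporter of cationic amino acids from lysosomes, had 16.7 to 22.2 CPM in 18 mo, 13.0 to 15.3 CPM in 21 mo and 13.6 to 16.1 CPM in 21 mo/O304. Both later groups were below 18 mo without overlap, by -0.49 (SE 0.15) and -0.43 (SE 0.15), with adjusted p values of 0.101 and 0.447. Slc15a3, a peptide carrier of immune cell endosomes, had 3.94 to 7.86 CPM in 18 mo, 6.76, 7.96 and 19.2 CPM in 21 mo and 4.90 to 5.84 CPM in 21 mo/O304, and its O304 libraries were below those of 21 mo. The peptide carrier of the brush border Slc15a2 had 66.5 to 99.2 CPM in 18 mo, 106, 75.2 and 34.4 CPM in 21 mo and 58.5 to 79.1 CPM in 21 mo/O304, and the groups overlapped.

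Glutamine taken up by the tubule feeds ammonia production, and 8 genes of that route were tested. None had an adjusted p under 0.05 by edgeR. In 21 mo against 18 mo, 7 had a negative difference, with a median over the 8 of -0.39 beside 0.03 for all genes, and under O304 against 21 mo 7 were positive, with a median of 0.34 beside -0.02. The proximal tubule markers had the same signs, 13 of 14 negative with a median of -0.81 and then 14 of 14 positive with a median of 0.77, and their part was not tested. Pck1, which turns the carbon skeleton towards glucose, had 978 to 1796 CPM in 18 mo, 1999, 1135 and 251 CPM in 21 mo, and 2520 to 2953 CPM in 21 mo/O304, where all libraries were above all others. In the 21 mo libraries its order was that of the proximal tubule marker sums of 20637, 10392 and 3164 CPM.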
